A study of Homo sapiens with 6 samples.

Results

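The genes described here drive or carry out the step from G1 into S phase: 40 genes of origin licensing, the replication fork, nucleotide supply and G1/S control, taken by gene symbol from the 16910 gene rows of the deposited table. They comprise 10 origin licensing genes, 20 genes of the fork, 4 genes of nucleotide supply and 6 E2F and cyclin regulators. All 40 passed the filter on low counts, as did 13235 of the 16910 genes. They were measured by RNA-seq in TOV21G, an established line of ovarian clear cell carcinoma, in 3 groups of 2 libraries. The NC group carries the genotype label WT and is read here as the control siRNA, siGYS1 is read as knockdown of GYS1, the muscle-type glycogen synthase, and sip53 as knockdown of p53; the sip53 label was not checked against its target here, so sip53 below means the libraries labelled so. All groups share the same line, so each result is of 1 tumour's cells. The siRNA sequences, the time after transfection and whether the replicates were separate cultures are not stated in the labels, so p-values measure only the spread between these libraries, which may be technical, and an effect of an siRNA on other transcripts cannot be told apart from that of its target.

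In G1, the origin recognition complex with CDC6 and CDT1 loads the MCM helicase onto replication origins, a step called licensing. Cyclin D with CDK4 or CDK6 and cyclin E with CDK2 phosphorylate RB, which frees E2F transcription factors to switch on the genes of licensing, the fork and nucleotide synthesis. The loaded helicase is then activated by CDC45 and the GINS complex, and polymerases, a sliding clamp and its loader copy the DNA. The p53 protein restrains the same step mainly through CDKN1A, an inhibitor of the cyclin-dependent kinases, and clear cell carcinomas of the ovary usually keep it intact.

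Since E2F factors switch on genes of licensing, the fork and nucleotide synthesis, the promoters of the 40 genes were searched for 4 E2F words. The words were TTTCCCGC, TTTCGCGC, TTTGCCGC and TTTGGCGC, on both strands, in RefSeq sequence of build GRCh38.p14. The search ran from 250 bases before to 50 bases after the gene start. A promoter was found for 34 of the 40 genes. At least 1 of the words was in 19 of the 34 promoters (55.9%), against 5.33% of the 10438 promoters of tested genes and 3.33% of all 27305 promoters of this length. The windows below are a selection from the promoters with a word before the gene start. The promoters of RRM2, SKP2 and CCNE1, which are also among the genes described below, held none of the words. Each window is 30 bases, 5′ to 3′ on the gene's strand. The capitals mark the words, which overlap one another on opposite strands in MCM6.
MCM6, chr2:135876575-135876604, minus strand: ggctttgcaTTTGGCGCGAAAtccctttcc
MCM6, chr2:135876513-135876542, minus strand: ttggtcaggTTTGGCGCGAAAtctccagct
PCNA, chr20:5126663-5126692, minus strand: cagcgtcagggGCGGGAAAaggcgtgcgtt
GINS2, chr16:85688967-85688996, minus strand: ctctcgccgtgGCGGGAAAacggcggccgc
LIG1, chr19:48170440-48170469, minus strand: acttcacccctTTTCCCGCcctcctcccat
TYMS, chr18:657603-657632, plus strand: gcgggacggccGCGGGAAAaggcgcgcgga
E2F2, chr1:23531257-23531286, minus strand: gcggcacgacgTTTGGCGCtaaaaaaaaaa
E2F1, chr20:33686394-33686423, minus strand: ctttcGCGGCAAAaaggaTTTGGCGCgtaa
RFC3, chr13:33818083-33818112, plus strand: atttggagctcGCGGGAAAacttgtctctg
The first 7 windows are of genes that fell with sip53, and the last 2 are of genes that did not pass the test there. A word was present in 16 of 28 promoters of genes lower with sip53 and in 3 of 5 of those not called. By role, it was present in 6 of 8 licensing promoters, 10 of 18 fork promoters, 1 of 4 nucleotide supply promoters and 2 of 4 regulator promoters. The word CCAAT was in 19 of the 34 promoters too, against 36.6% of those of tested genes, and the CHR words TTTGAA and TTCGAA were in 2 of 34 (5.88%), against 10.9%. A match is a description of the letters in these windows and not of binding.

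The GYS1 transcript, which checks the siGYS1 label, was at 90.2 and 86.7 CPM (read counts scaled to library size) in the NC libraries and at 5.59 and 5.52 with siGYS1, or 6.29% of NC in the edgeR quasi-likelihood fit (adjusted p = 1.28e-07). Read counts summed to between 17425000 and 18097300 per library, with 4.81% to 6.0% of them from mitochondrially encoded genes. NC replicate 2 and siGYS1 replicate 1 stood apart from the rest: the deviation of a gene from the mean of all libraries went with its length there (Spearman's rho across 11187 genes of -0.39 and 0.54), while rho was between -0.09 and 0.04 in the other 4. The 40 genes lie at the median length percentile of 48.1, and range from 10.3 for POLE2 to 92.1 for POLE. NC replicate 2 and siGYS1 replicate 1 lie on opposite sides of siGYS1 against NC, with opposite signs of rho. In that comparison, an effect of siGYS1 on a single gene and one of gene length cannot be fully told apart. Of the clear cell markers, PAX8 (150 ± 8.11 FPKM, fragments per kilobase scaled to depth, mean ± SD with NC, n = 2) and SPP1 (3487 ± 128) were present, and NAPSA (0.445) and GPX3 (0.355) were near 0. Of the fibroblast markers, COL1A1 fell with sip53 (log2 -0.43, adjusted p = 0.0031), and DCN rose from 3 and 4 counts with NC to 70 and 57 with sip53 (adjusted p = 2.88e-05). Of the endothelial markers, PECAM1 ran from 0.03 to 0.52 FPKM and CDH5 from 0.24 to 1.00, with the highest values of both in the sip53 libraries. Of 7 epithelial markers, 4 fell with siGYS1 (KRT8, KRT18, KRT19 and MUC1), against 9.24% of all tested genes. With sip53 KRT8, EPCAM and CDH1 fell, EPCAM to 34.3% and CDH1 to 48.8% of NC, while MUC1 rose (log2 0.48, adjusted p = 0.0494). Of all tested genes, 26.5% fell and 23.4% rose with sip53. The part of these markers in the results was not tested.

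The G1/S and replication genes were lower with sip53 and, as a group, near the control level with siGYS1. With sip53, 31 of the 40 fell, or 77.5%, against 26.5% of all tested genes, and 2 rose, RPA2 and CCNE1, against 23.4% of all; 49.9% of all tested genes changed either way. Their median log2 fold change was -0.73, which is 60.4% of NC, beside -0.03 over all tested genes. With siGYS1, where 19.7% of all tested genes changed either way, 4 of the 40 rose, or 10%, against 10.4% of all: SKP2, CCND1, RPA2 and MCM2. None fell with siGYS1, against 9.24% of all, in the edgeR quasi-likelihood fit, in DESeq2 or in limma on FPKM. In the edgeR fit 1 of the 40, MCM6, was lower at an unadjusted p below 0.05. Other alternatives did give falls: MCM6 with the replicate number as a block, and MCM6, E2F2 and RRM2 with offsets corrected for gene length. The median with siGYS1 was 0.07, beside -0.01 over all tested genes. The threshold is an adjusted p (Benjamini-Hochberg) below 0.05 over all tested genes, and no minimum fold was set. Both comparisons use the same NC libraries, so they are not independent of each other. In bulk RNA, fewer cells in S phase and less of these transcripts per cell cannot be told apart.

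**Figure D1:**
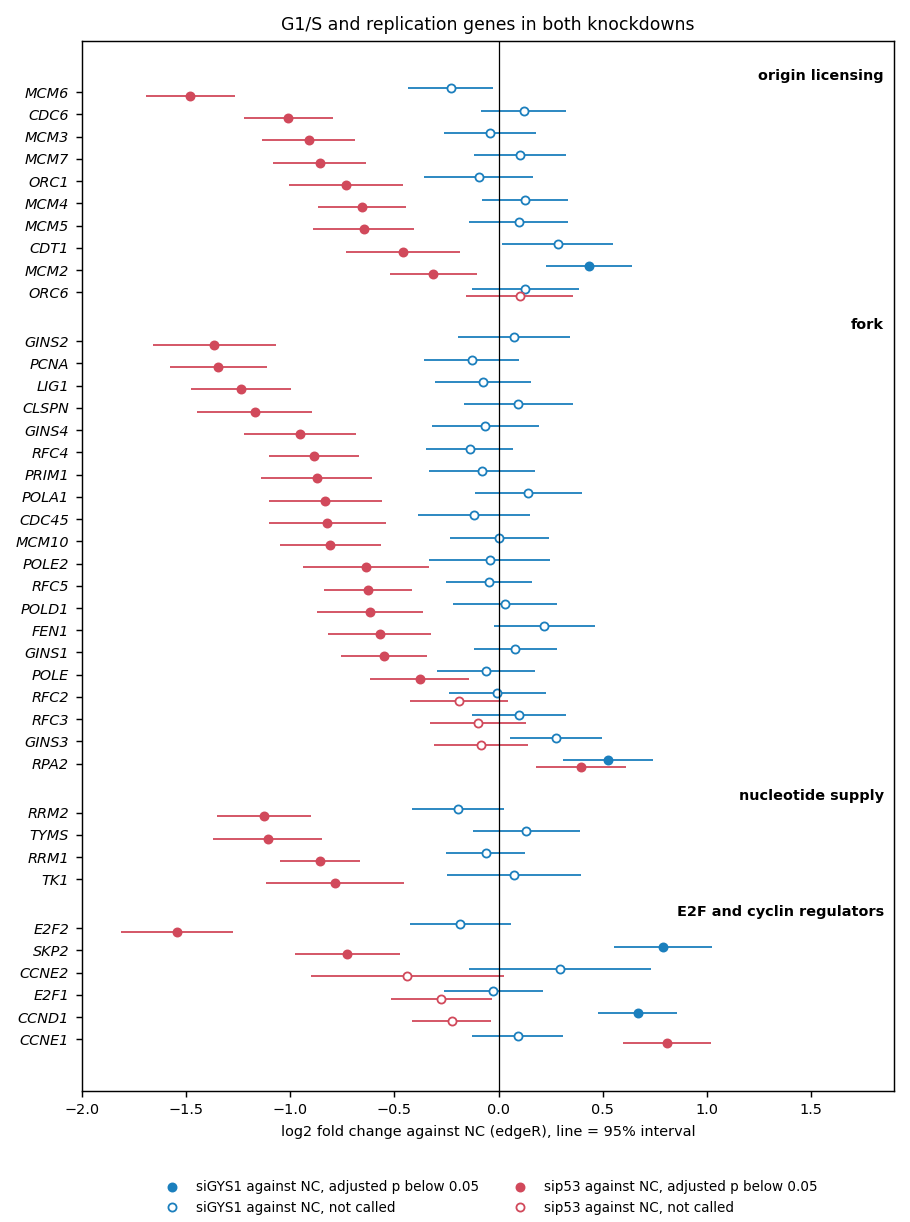
Log2 fold change against NC (x axis) of each of the 40 genes (y axis, grouped by role) with siGYS1 and with sip53; points are edgeR estimates, bars their 95% intervals, and filled points passed an adjusted p below 0.05. With sip53, 31 genes lie to the left of 0 and passed, and with siGYS1 4 genes passed, all to the right.

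The fall was seen in both sip53 libraries. For 35 of the 40 genes both sip53 libraries were below both NC libraries in CPM. Within groups, 38 of the 40 genes were lower in replicate 1 than in replicate 2 with sip53, as were 30 of the 40 with siGYS1 and 26 of the 40 with NC. The shares of all tested genes with these orders were not computed, so these counts are descriptions only. Summed over all 40 genes, the transcripts took 0.205% and 0.204% of all FPKM in the NC libraries, 0.211% and 0.216% with siGYS1, and 0.109% and 0.121% with sip53. By sum, the 10 licensing genes stood at 394 and 410 FPKM with NC, at 389 and 421 with siGYS1, and at 207 and 239 with sip53. The 6 regulators did not follow this pattern as a sum, with 86.2 and 86.4 FPKM with NC, 116 and 109 with siGYS1, and 76.2 and 79.6 with sip53.

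**Figure D2:**
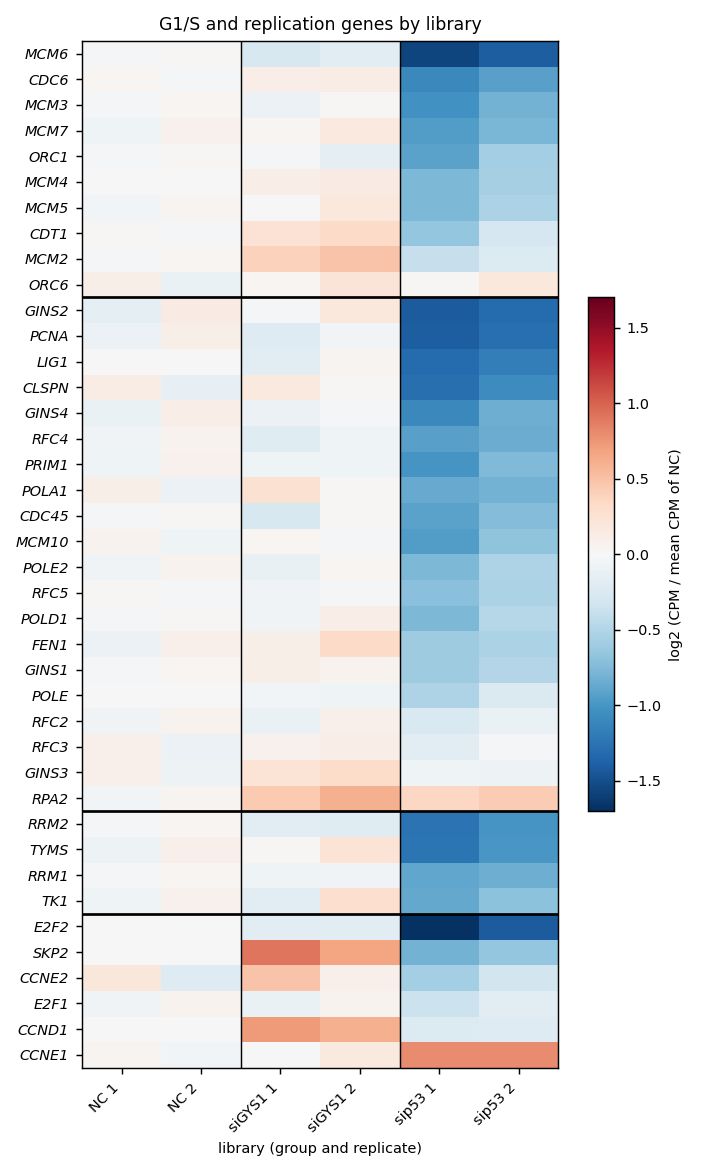
Log2 CPM of each of the 40 genes (rows, grouped by role) in each of the 6 libraries (columns), as the difference from the mean CPM of that gene with NC. The 2 sip53 columns are low for most rows, the 4 NC and siGYS1 columns are alike for most, and the rows of RPA2, CCNE1, CCND1 and SKP2 depart from that.

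Of the origin licensing genes, 9 of 10 fell with sip53 (median log2 fold change -0.69), against 26.5% of all tested genes. MCM6, a subunit of the MCM helicase, stood at 119 and 122 CPM with NC, 99.9 and 106 with siGYS1, and 40.7 and 45.8 with sip53. Its sip53 values were far below all others, at 35.9% of NC (log2 -1.48, SE 0.10, adjusted p = 2.89e-06, the smallest of the 40 genes). With siGYS1 it was at log2 -0.23 (SE 0.09, adjusted p = 0.106), and with the replicate number as a block this smaller difference passed (adjusted p = 0.0224). CDC6, the ATPase that joins ORC to load the helicase, was at 61.3 and 58.6 CPM with NC, 64.7 and 65.6 with siGYS1, and 28.1 and 31.5 with sip53. The siGYS1 libraries sat just above NC, and sip53 was at 49.7% of NC (log2 -1.01, SE 0.10, adjusted p = 2.89e-05).

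MCM2, another helicase subunit, moved in opposite directions in the 2 knockdowns. It was at 103 and 107 CPM with NC, 137 and 147 with siGYS1, and 80.0 and 89.3 with sip53, with no overlap between any 2 groups. It rose 1.35-fold with siGYS1 (log2 0.43, SE 0.09, adjusted p = 0.011) and fell by 0.31 on the log2 scale with sip53 (SE 0.09, adjusted p = 0.019). Both calls were lost in some fits with 1 library left out. The rise did not pass without NC replicate 1 or NC replicate 2. The fall did not pass without NC replicate 1, NC replicate 2 or sip53 replicate 1. Over all 15 alternatives the log2 fold change lay between 0.38 and 0.51 with siGYS1, and between -0.39 and -0.24 with sip53.

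The other 4 MCM subunits fell with sip53 by between 0.65 for MCM5 and 0.91 for MCM3 on the log2 scale, with MCM4 at -0.66 and MCM7 at -0.86. ORC1, the largest subunit of the origin recognition complex, was at 26.1 and 26.6 CPM with NC and 14.0 and 17.7 with sip53 (log2 -0.73, SE 0.12, adjusted p = 0.000883). CDT1, which delivers the helicase to the origin, was at 31.4 and 30.7 CPM with NC and 19.7 and 25.5 with sip53 (log2 -0.46, SE 0.12, adjusted p = 0.0115). Its fall rests on sip53 replicate 1, without which it was -0.28 (adjusted p = 0.123). ORC6, the smallest ORC subunit, was the exception among the licensing genes: its 6 libraries lay between 22.3 and 27.9 CPM, with all 3 groups overlapping, at log2 0.10 with sip53 (95% interval -0.16 to 0.36).

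Because the helicase holds its 6 MCM subunits in equal number, their relative transcript levels were compared per length, in FPKM. MCM6 made up 11.1% and 10.6% of the summed MCM2 to MCM7 FPKM in the NC libraries, 8.97% and 8.71% with siGYS1, and 6.86% and 6.71% with sip53. MCM2 went the other way, from 10.7% and 10.3% with NC to 13.7% and 13.6% with siGYS1 and 15% and 14.7% with sip53. For both genes the 3 groups did not overlap. The share of MCM7 stayed between 30.01% and 32.4% in every library. The ratio of the highest to the lowest subunit was 2.89 and 3.14 with NC, 3.58 and 3.72 with siGYS1, and 4.48 and 4.47 with sip53. These shares were not tested and describe 2 libraries a group.

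**Figure D3:**
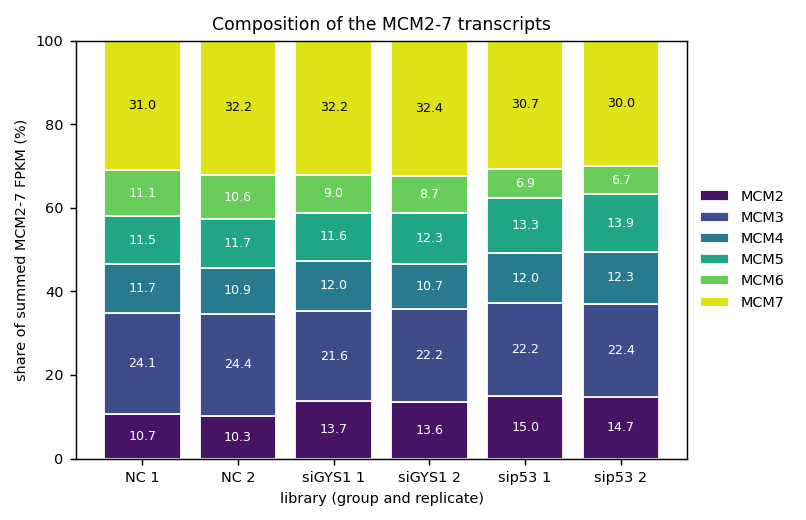
Share of each MCM subunit (percent, y axis) in the summed FPKM of MCM2 to MCM7, in each of the 6 libraries. MCM6 is lowest with sip53, at 6.86% and 6.71%, and MCM2 is highest there, at 15% and 14.7%, while MCM7 stays between 30.01% and 32.4%.

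Of the 20 fork genes, 16 fell and 1 rose with sip53 (median log2 fold change -0.72), against 26.5% and 23.4% of all tested genes. PCNA, the sliding clamp that holds polymerases on DNA, was at 237 and 271 CPM with NC, 219 and 247 with siGYS1, and 96.0 and 104 with sip53. NC and siGYS1 overlapped, and sip53 was at 39.4% of NC (log2 -1.34, SE 0.10, adjusted p = 8.42e-06). GINS2, a subunit of the GINS complex of the active helicase, was at 25.9 and 31.5 CPM with NC, 28.0 and 32.4 with siGYS1, and 10.7 and 11.5 with sip53. Again NC and siGYS1 overlapped, and sip53 was at 38.8% of NC (log2 -1.36, SE 0.13, adjusted p = 3.26e-05). LIG1, which joins Okazaki fragments, was at 74.0 and 74.4 CPM with NC and 30.03 and 32.9 with sip53 (log2 -1.24, SE 0.11, adjusted p = 1.71e-05). CLSPN, which relays replication stress to CHK1, was at 54.3 and 45.2 CPM with NC and 20.5 and 23.8 with sip53 (log2 -1.17, SE 0.12, adjusted p = 5.6e-05). These 4 were the fork genes that fell at least 2-fold.

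The falls of the other fork genes were smaller. CDC45, which completes the helicase with GINS, and MCM10, which helps to fire it, fell by 0.82 and 0.81 on the log2 scale. The catalytic subunits of the polymerases fell by 0.83 for POLA1 of polymerase alpha, 0.62 for POLD1 of delta and 0.38 for POLE of epsilon. The fall of POLE was not called without NC replicate 1 (adjusted p = 0.0502), NC replicate 2 (0.0618) or sip53 replicate 1, where it was -0.24 (0.167). The primase subunit PRIM1 fell by 0.87, the polymerase epsilon subunit POLE2 by 0.64, and FEN1, which trims Okazaki fragments, by 0.57.

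Members of 1 complex did not all move alike. Of the GINS subunits, GINS1 fell by 0.55 and GINS4 by 0.96 on the log2 scale, whereas GINS3 was at 25.2 and 22.3 CPM with NC and 22.5 and 22.3 with sip53, within the range of NC (log2 -0.08, 95% interval -0.31 to 0.14). In FPKM, GINS2 made up 20.6% and 23.3% of the 4 GINS transcripts with NC and 13.4% and 13.8% with sip53, and GINS3 26.2% and 21.8% with NC and 37.9% and 34.9% with sip53. Of the clamp loader subunits, RFC4 fell by 0.88 and RFC5 by 0.63. RFC3 was at 60.2 and 52.7 CPM with NC and 49.7 and 55.7 with sip53, which overlap (log2 -0.10, 95% interval -0.33 to 0.13). RFC2 was at log2 -0.19 (95% interval -0.42 to 0.05, adjusted p = 0.162), and passed with the replicate block (adjusted p = 0.0447).

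RPA2, a subunit of the complex that coats single-stranded DNA, rose in both knockdowns. It was at 45.4 and 48.6 CPM with NC, 63.9 and 71.4 with siGYS1, and 60.2 and 63.3 with sip53, so both knockdowns lay above NC. The log2 fold change was 0.53 with siGYS1 (SE 0.10, adjusted p = 0.00563) and 0.39 with sip53 (SE 0.10, adjusted p = 0.00725). The sip53 rise was not called without NC replicate 1 (adjusted p = 0.0595) or sip53 replicate 2 (0.0716). The 2 knockdowns differed by 0.13 (95% interval -0.08 to 0.34, adjusted p = 0.294).

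**Figure D4:**
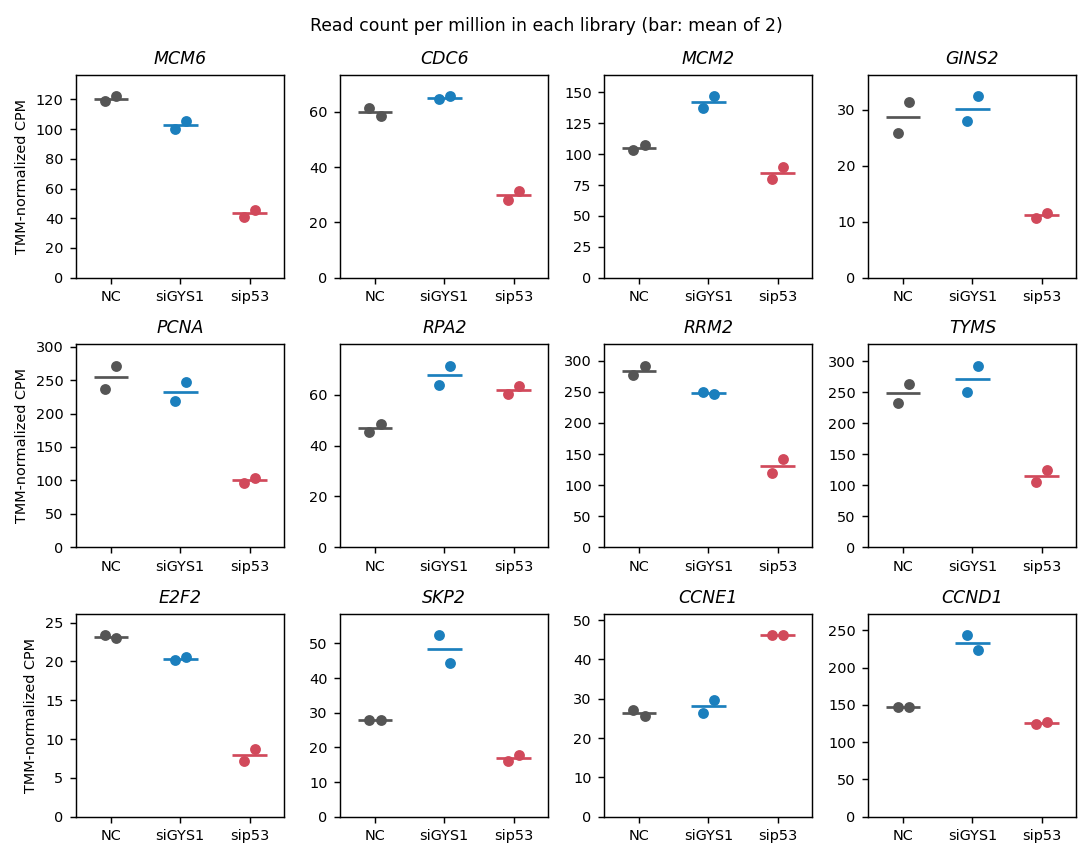
CPM (y axis, from 0) of the selected genes in each library of NC, siGYS1 and sip53; points are single libraries and lines the group means. PCNA and MCM6 are lowest with sip53, with MCM6 also below NC in both siGYS1 libraries, SKP2 and CCND1 are high with siGYS1, and CCNE1 is high with sip53.

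All 4 nucleotide supply genes fell with sip53, against 26.5% of all tested genes. Their median log2 fold change of -0.98 was the lowest of the 4 roles. With siGYS1 they lay between -0.19 and 0.13 without passing. RRM2, the regulated subunit of ribonucleotide reductase, was at 277 and 292 CPM with NC, 249.7 and 247 with siGYS1, and 119 and 142 with sip53. The sip53 libraries were at 45.9% of NC (log2 -1.12, SE 0.10, adjusted p = 2e-05), and the siGYS1 libraries sat just under NC without passing (log2 -0.19, SE 0.10, adjusted p = 0.193). Its partner RRM1 was at 100.4 and 105 CPM with NC and 55.8 and 57.7 with sip53 (log2 -0.86, SE 0.09, adjusted p = 4.1e-05). TYMS, which makes thymidylate, was at 233 and 263 CPM with NC, 251 and 292 with siGYS1, and 105 and 125 with sip53. NC and siGYS1 overlapped, and sip53 was at 46.4% of NC (log2 -1.11, SE 0.12, adjusted p = 5.66e-05). TYMS shares 39.2% of its exon bases with ENOSF1 on the other strand, and whether counting used strand is not given; ENOSF1 itself was at log2 -0.03 with sip53 (adjusted p = 0.816). TK1, the thymidine salvage kinase, was at 84.6 and 94.2 CPM with NC, 78.9 and 109 with siGYS1, and 48.8 and 54.95 with sip53 (log2 -0.79, SE 0.15, adjusted p = 0.0017).

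The 6 regulators were the role in which the genes differed most among themselves. With sip53 2 fell (33.3%, against 26.5% of all tested genes), 1 rose (16.7%, against 23.4%) and 3 did not pass. These sip53 shares are not far from those of all genes. With siGYS1 2 rose (33.3%, against 10.4% of all). E2F2, an activator E2F, was at 23.4 and 23.0 CPM with NC, 20.2 and 20.5 with siGYS1, and 7.20 and 8.68 with sip53. It fell to 34.3% of NC with sip53 (log2 -1.54, SE 0.12, adjusted p = 8.32e-06), the largest fall of the 40 genes, and was not called with siGYS1 (log2 -0.18, adjusted p = 0.255). E2F1, the other activator E2F here, was at 26 and 28.1 CPM with NC, 25 and 28.2 with siGYS1, and 21 and 23.7 with sip53. The sip53 libraries were below NC by little (log2 -0.27, SE 0.11, adjusted p = 0.0587), and the difference passed in 6 of 15 alternatives, among them the replicate block (-0.28, adjusted p = 0.0118). The ratio of E2F1 to E2F2 in FPKM was 2.27 and 2.51 with NC, 2.52 and 2.80 with siGYS1, and 5.96 and 5.58 with sip53.

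CCNE1, a cyclin E that activates CDK2, rose with sip53. It was at 27.1 and 25.5 CPM with NC, 26.4 and 29.6 with siGYS1, and 46.1 in both sip53 libraries, which were above all 4 others. The rise was 1.75-fold (log2 0.81, SE 0.10, adjusted p = 0.000105). CCNE2, the other cyclin E, was the least abundant of the 40 genes, at 7.37 and 5.53 CPM with NC, 8.99 and 6.86 with siGYS1, and 4.32 and 5.20 with sip53, and did not pass against NC (log2 -0.44 with sip53, adjusted p = 0.107; over the alternatives -0.66 to -0.22, passing in 2 of 15). CCNE2 is uncertain, since it shares 37.0% of its exon bases with INTS8 on the other strand, whose mean count of 1249 is far above that of CCNE2, and INTS8 fell by 0.75 on the log2 scale with sip53 (adjusted p = 0.000133).

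SKP2, the substrate receptor of the ubiquitin ligase that removes the CDK inhibitor p27, moved up with siGYS1 and down with sip53. It was at 27.9 and 28.0 CPM with NC, 52.3 and 44.4 with siGYS1, and 16.1 and 17.7 with sip53, with no overlap between groups. It rose 1.73-fold with siGYS1 (log2 0.79, SE 0.11, adjusted p = 0.00126), the largest rise of the 40 genes there, and fell by 0.73 with sip53 (SE 0.11, adjusted p = 0.000574). CCND1, the cyclin D that partners CDK4 and CDK6, was at 147 CPM in both NC libraries, 243 and 223 with siGYS1, and 125 and 126 with sip53. It rose 1.59-fold with siGYS1 (log2 0.67, SE 0.08, adjusted p = 0.000985). With sip53 it was lower in both libraries than in both NC libraries and just missed the threshold (log2 -0.22, SE 0.08, adjusted p = 0.0504); it passed in 7 of 15 alternatives, among them the replicate block (adjusted p = 0.0152). The FPKM ratio of CCND1 to CCNE1 was 2.11 and 2.15 with NC, 3.49 and 2.94 with siGYS1, and 1.08 in both sip53 libraries.

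With siGYS1, the 36 genes that did not pass lay between -0.23 and 0.30 on the log2 scale, and the 95% intervals of 35 of the 40 genes lay within 1.5-fold of NC either way. The 4 rises had adjusted p-values between 0.000985 for CCND1 and 0.011 for MCM2. With the replicate number as a block, 7 of the 40 rose and 1 fell: CDT1 (log2 0.28, adjusted p = 0.0272), FEN1 (0.22, adjusted p = 0.0338) and GINS3 (0.28, adjusted p = 0.025) joined the 4, and MCM6 was the fall. The block also called more of all tested genes than the 2602 of the fit without it, as given in the last section. Shares of all tested genes by direction were not computed for the alternatives, so their counts among the 40 are descriptions only. Without NC replicate 2 and siGYS1 replicate 1, an alternative chosen after seeing the data, 7 rose and none fell: FEN1 (0.43, adjusted p = 0.00676), TK1 (0.37, adjusted p = 0.0206) and TYMS (0.33, adjusted p = 0.0372) joined, and 33 of the 40 fell with sip53.

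Set against each other directly, 34 of the 40 genes were higher with siGYS1 than with sip53, against 22.5% of all tested genes, and 1 was lower, CCNE1, against 20.9%; 43.4% of all tested genes differed either way. The median log2 difference was 0.79. All 31 genes that fell with sip53 were among the 34, joined by GINS3, CCNE2 and CCND1. Both comparisons use the same sip53 libraries, so this overlap is not independent of the fall with sip53. SKP2 differed most, at 2.86-fold higher with siGYS1 (log2 1.52, SE 0.11, adjusted p = 7.74e-06), followed by GINS2 (1.44, SE 0.13, adjusted p = 3.02e-05) and E2F2 (1.36, SE 0.12, adjusted p = 2.54e-05). CCNE1 was lower with siGYS1 by 0.72 (log2 -0.72, SE 0.10, adjusted p = 0.000269). ORC6, RFC2, RFC3, RPA2 and E2F1 did not pass. POLE passed narrowly (log2 0.32, SE 0.11, adjusted p = 0.0347) and lost the call in 9 of 15 alternatives, without sip53 replicate 1 at 0.18 (adjusted p = 0.308). GINS3 was not called without either sip53 library (adjusted p = 0.087 and 0.0968), CCNE2 without siGYS1 replicate 1 (0.0696) or sip53 replicate 1 (0.125), and POLE2 without sip53 replicate 1 (0.0702).

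**Figure D5:**
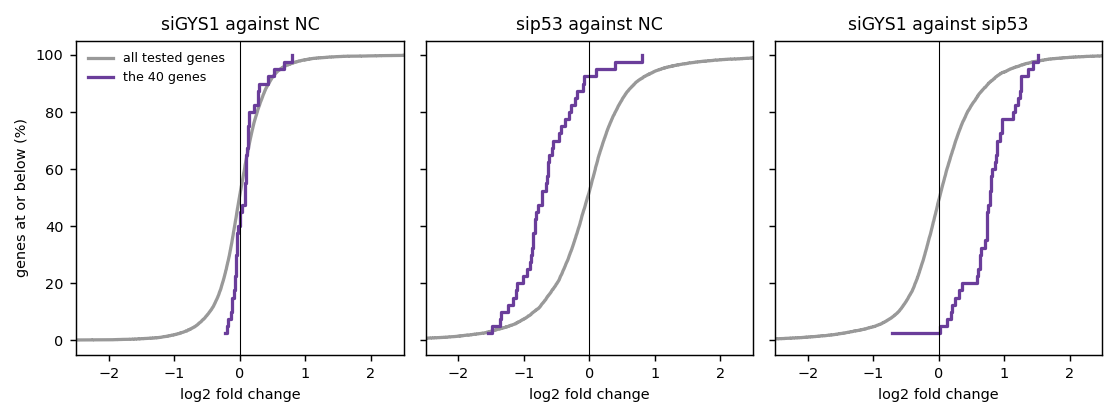
Cumulative share (y axis) of log2 fold changes (x axis) for the 40 genes and for all tested genes, with siGYS1 against NC, sip53 against NC and siGYS1 against sip53. The median of the 40 genes is at -0.73 with sip53, 0.07 with siGYS1 and 0.79 between the knockdowns, and the medians over all tested genes are -0.03, -0.01 and 0.01.

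Levels per length differed widely between the genes. With NC, PCNA was the most abundant at 266 ± 24.6 FPKM (mean ± SD, n = 2), followed by TYMS at 194 ± 15.5. MCM7 (105 ± 7.54), RRM2 (99.1 ± 3.34) and TK1 (88.5 ± 9.84) followed; the libraries of MCM7 and RRM2 overlap, and both of TK1 lay below both of RRM2. At the low end were POLA1 (5.4 ± 0.35), E2F2 (4.88 ± 0.09) and CCNE2 (4.41 ± 0.28), whose libraries do not overlap one another. PCNA, TYMS and MCM7 held ranks 1 to 3 in all 3 groups. CCNE1 changed rank most, from 23 with NC and 22 with siGYS1 to 11 with sip53, and GINS3 went from 31 with NC and 26 with siGYS1 to 20 with sip53. SKP2 went from 37 with NC to 27 with siGYS1.

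The other genes of the pathway, 72 in all and all tested, showed a like but weaker pattern with sip53: 39 fell (54.2%, against 26.5% of all tested genes) and 11 rose (15.3%, against 23.4%), at a median log2 fold change of -0.33. By role, 8 of 13 licensing genes, 14 of 20 fork genes and 5 of 10 nucleotide supply genes fell, and of 29 regulators 12 fell and 9 rose. The largest falls were in CDKN2C, an inhibitor of CDK4 and CDK6 (log2 -2.12, SE 0.14, adjusted p = 3.06e-06), E2F8, a repressor E2F (-1.69, SE 0.13, adjusted p = 9.63e-06), and CHAF1B, a chaperone that deposits histones behind the fork (-1.32, SE 0.11, adjusted p = 1.31e-05). The largest rises were in CDKN2A, which encodes the inhibitor p16 and ARF (2.01, SE 0.15, adjusted p = 7.36e-06), CCND2, a cyclin D (0.86, SE 0.10, adjusted p = 0.000114), and CDC25A, the phosphatase that activates CDK2 (0.75, SE 0.13, adjusted p = 0.000985). CDKN2A was at 3.23 and 3.65 CPM with NC, 2.59 and 3.01 with siGYS1, and 14.3 and 13.4 with sip53. CDKN2C was at 60.8 and 69.6 CPM with NC, 35.4 and 42.5 with siGYS1, and 13.4 and 16.6 with sip53, so it was below NC in both knockdowns.

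With siGYS1, 11 of these 72 genes rose (15.3%, against 10.4% of all tested genes) and 5 fell (6.94%, against 9.24%), shares near those of all genes, at a median of 0.06, and 10 of the rises and 3 of the falls were among the regulators. The largest rises were in E2F7, a repressor E2F (log2 0.87, SE 0.15, adjusted p = 0.0036), CDC25A (0.86, SE 0.13, adjusted p = 0.00219) and FBXW7, the ubiquitin ligase receptor that removes cyclin E (0.65, SE 0.10, adjusted p = 0.00325). The largest falls were in CDKN2C (-0.74, SE 0.13, adjusted p = 0.00413), the polymerase delta subunit POLD4 (-0.71, SE 0.15, adjusted p = 0.0104) and CCND3, a cyclin D (-0.65, SE 0.09, adjusted p = 0.00142). Of the 3 cyclin D genes, CCND1 thus rose, while CCND3 fell from 139 and 134 CPM with NC to 83.1 and 91.2 with siGYS1, and CCND2 from 79.1 and 88.9 to 60.2 and 68.3 (log2 -0.39, adjusted p = 0.029). Between the knockdowns, 45 of the 72 were higher with siGYS1 (62.5%, against 22.5% of all) and 7 lower (9.72%, against 20.9%): E2F8 (1.62, SE 0.13), CDKN2C (1.38, SE 0.14) and RBL1, the RB relative p107 (1.38, SE 0.13), led the rises, and CDKN2A (-2.30, SE 0.16), CCND2 (-1.24, SE 0.10) and E2F5 (-0.73, SE 0.09), an E2F that acts mostly as a repressor, the falls.

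CDKN1A, the p53-induced inhibitor of the G1/S kinases, was at 465 and 464 CPM with NC, 555 and 586 with siGYS1, and 346 and 326 with sip53. It lay below NC with sip53 (log2 -0.47, SE 0.08, adjusted p = 0.00105) and above NC with siGYS1 (0.30, SE 0.08, adjusted p = 0.0299), so with sip53 this inhibitor and the replication genes were both lower. GMNN, geminin, which holds CDT1 back, was at 46.1 and 51.3 CPM with NC and 22.5 and 26.8 with sip53 (log2 -0.98, SE 0.11, adjusted p = 9.84e-05). The FPKM ratio of CDT1 to GMNN was 0.242 and 0.215 with NC, 0.263 and 0.277 with siGYS1, and 0.320 and 0.364 with sip53.

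Genes of other cell cycle steps also changed with sip53. All 12 genes of a mitosis list fell there (median log2 fold change -0.66), against 26.5% of all tested genes. With siGYS1, 2 of the 12 rose (16.7%), against 10.4% of all. TOP2A was at 300 and 277 CPM with NC and 407 and 344 with siGYS1, and CENPF at 166 and 113, then 209 and 192. How far these 2 rises rest on NC replicate 2 and siGYS1 replicate 1, which stood apart by gene length, was not tested. Replication-dependent histone genes, whose transcripts are made in S phase and normally carry no poly(A) tail, went the other way. Of 8 tested, 6 rose with sip53, against 23.4% of all tested genes, at a median log2 fold change of 1.32. The other 2, H2AC6 (-0.12) and H3C10 (0.61), did not pass. Most of the 6 rises started from low counts. With NC these were 11 and 10 for H4C8, 29 and 32 for H2BC4, and 31 and 36 for H2BC21. H2AC18, the largest rise (log2 3.16), had 0 and 50 counts with NC. Among the genes that rose, H1-2 had the most counts with NC, at 275 and 307. Summed over the 10 listed histone genes, the level was 69.6 and 95.9 FPKM with NC, 68.2 and 79.9 with siGYS1, and 180 and 154 with sip53. The labels' protocol describes poly(A) selection in general terms. The part of either list in the fall of the replication genes was not tested.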

How the data were processed

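RNA-seq of 6 libraries, for which the labels' protocol describes poly(A) selection in general terms, was analysed from the table the authors deposited. Per the file headers it holds, per library, a read count, FPKM, TPM and a normalized read count. The deposited read counts are expected counts, since 16.8% to 18.1% per library are not whole (tolerance 1e-09); they were rounded. The authors' FPKM were used for levels between genes. The authors' TPM and normalized read count, a scaled signal, were not used. The submitters' processing notes name the quantifiers Salmon, featureCounts and HTSeq, the aligners TopHat, HISAT2 and STAR, the trimmers cutadapt and Trimmomatic, FastQC, edgeR and DESeq2, with no version or role. Those notes give the build as mm10, of mouse, but the gene identifiers are human. No source used here says which tool made the table or whether counting used strand.

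The test was edgeR's quasi-likelihood test (edgeR 4.0.16, R 4.3.3) after filterByExpr (minimum count 10) and TMM scaling, with all 6 libraries in 1 fit and group as the only term. All p-values given as adjusted are Benjamini-Hochberg values over 13235 tested genes. The SE is the absolute log2 fold change over the root of F, and 95% intervals use 9.67 degrees of freedom. CPM use TMM library sizes, and their SD is not given where both libraries are printed. Alternatives were DESeq2 1.42.0, limma 3.58.1 on log2(FPKM + 1), RLE factors, no filter, only the compared groups, a 1.5-fold minimum, length-corrected offsets, each library left out, and the replicate number as a block. Deviations from the group mean were correlated between libraries with the same number (11187 genes). The correlation was 0.59 between NC and siGYS1, the groups of NC replicate 2 and siGYS1 replicate 1, which stood apart by gene length. With sip53 it was 0.12 for NC and 0.27 for siGYS1. Whether gene length or an effect shared by replicate number lies behind it was not tested. The block is printed where it changes a call, and the labels do not say what the number marks. Replicates differed by more than sampling noise (chi-square over degrees of freedom 3.36 to 15.4). The fit was tested on data simulated for sip53 against NC (13235 genes). Of these, 100 were changed by log2 size 1 and 100 by 0.5. The fit recovered 89% and 43% of them, with 8.97% of calls false. Far fewer genes changed there than were called with sip53, so these rates do not carry over to the data.

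The 40 genes, the lists and the alternatives were chosen with earlier results of these data known, and no list was tested as a set. Named are the 40 genes, the 3 largest called rises and falls of the other pathway genes per comparison, GYS1 and CDKN1A; GMNN, ENOSF1 and INTS8 were named after their values were seen. Some genes of this rule and of the marker lists are not reported here.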

Additional observations from a re-analysis of the deposited data

How the results depend on the processing

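No gene of the 40 reversed a call under any of the 15 alternatives. SKP2 and CCND1 of the 4 siGYS1 calls, 27 of the 33 sip53 calls and 30 of the 35 calls between the knockdowns passed in every alternative. With siGYS1, genes higher numbered 7 with the replicate block, 8 with length-corrected offsets, 2 at 1.5-fold or more and 7 without both NC replicate 2 and siGYS1 replicate 1; genes lower numbered 1 with the replicate block (MCM6) and 3 with length-corrected offsets (MCM6, E2F2 and RRM2). Leaving out 1 library gave 3 to 5 higher with siGYS1, and with sip53 28 to 33 lower and 1 to 2 higher. At 1.5-fold, 1 was higher with sip53. Uncalled with sip53, CCND1 passed as lower in 7 alternatives, E2F1 in 6, and CCNE2 and RFC2 in 2 each. Over all genes, siGYS1 against NC gave 1512 changed with only the compared groups, 4662 with the block, 4107 with length correction, 1061 at 1.5-fold and 927 (without NC replicate 2) to 4267 (without siGYS1 replicate 2) with 1 library left out. The sip53 count was 3556 at 1.5-fold and 4284 to 7589 with 1 library left out, and between the knockdowns 2931 and 3445 to 6359 with 1 library left out (6386 without NC replicate 2 and siGYS1 replicate 1). With 2 libraries a group, a lone library is assumed to vary like the others. Among the 40 genes the block changed no call beyond those printed with the results and E2F1 between the knockdowns (0.25, adjusted p = 0.0238). Far fewer genes were changed in the simulation than were called with sip53, so its 43% recovery at log2 size 0.5 does not give the rate here. A difference that was not called is not shown to be absent.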
